A study of Mus musculus with 24 samples.

Results

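Tetrahydrobiopterin is the cofactor made from GTP that the aromatic amino acid hydroxylases and the nitric oxide synthases need, and its 6 genes of synthesis, recycling and control (Gch1, Pts, Spr, Pcbd1, Qdpr and Gchfr) were followed here in mouse dorsal root ganglia (DRG) after a sciatic nerve lesion. They were found by their symbols in the annotation of Agilent 4x44K whole mouse genome arrays, which gave 8 probes of the 41174 probes and 6 of the 27398 gene names on the array. Gch1 and Pts had 2 probes each and the other genes 1 probe each. RNA came from the L4 and L5 ganglia of adult male C57BL/6J mice, either wildtype (WT, Nfil3 +/+) or littermates without the transcription repressor NFIL3 (Nfil3 -/-, here KO). The null allele was made by recombining a floxed Nfil3 allele with a Cre driven by a human CMV promoter, so the deletion was not limited to neurons. Ganglia were taken at day 2 or day 5 after the sciatic nerve had been cut and its ends rejoined, and control ganglia came from the uninjured side. Each of the 6 groups (WT control, WT day 2, WT day 5, KO control, KO day 2 and KO day 5) held 4 samples, 2 labelled with Cy3 and 2 with Cy5. The labels do not say which mouse a control ganglion shares with a lesioned one, so controls entered as separate samples.

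GTP cyclohydrolase, encoded by Gch1, carries out the first and usually rate-limiting step of the pathway, and 6-pyruvoyltetrahydropterin synthase (Pts) and sepiapterin reductase (Spr) complete the synthesis. After each turn of a hydroxylase the cofactor leaves as a carbinolamine, which pterin-4a-carbinolamine dehydratase (Pcbd1) dehydrates and dihydropteridine reductase (Qdpr) reduces back to tetrahydrobiopterin. The GTP cyclohydrolase feedback regulatory protein (Gchfr) binds the enzyme and passes on inhibition by the end product. In sensory ganglia the pathway is known from work on neuropathic pain, where Gch1 is induced in injured sensory neurons.

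The results turn on Gch1, so the 60 bases of its brighter probe, A_51_P297579, and the 250 bases before its start are shown. The array's design annotation places the probe on the minus strand of mm9 at chr14:47788897-47788956. The second Gch1 probe, A_52_P298002, lies at chr14:47773797-47773856 of the same strand, with 15040 bases between the probes. The promoter stretch is from RefSeq (GRCm38.p6, minus strand, chr14:47189414-47189663), and capitals mark TGACG, the core of the cyclic AMP response element, and a CCAAT box.
Gch1 probe: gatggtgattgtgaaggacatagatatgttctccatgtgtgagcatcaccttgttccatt
Gch1 promoter: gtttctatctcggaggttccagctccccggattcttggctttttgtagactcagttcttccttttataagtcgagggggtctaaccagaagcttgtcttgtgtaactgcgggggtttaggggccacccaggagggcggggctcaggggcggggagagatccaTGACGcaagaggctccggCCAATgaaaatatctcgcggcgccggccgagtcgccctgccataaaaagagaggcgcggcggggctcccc
The TGACG begins 88 bases and the CCAAT 70 bases before the start. Searched on both strands in 250 bases before the starts, TGACG stood in 20.8% and CCAAT in 37.4% of 32851 RefSeq promoters. The full response element TGACGTCA, which contains TGACG, was in none of the 6 genes' promoters and in 1.79% of all promoters. TTACGTAA, 1 exact form of the NFIL3 motif, was also in none of the 6 and in 0.119% of all promoters. At so low a share its absence from 6 promoters says little about NFIL3 sites. Variants and longer stretches, as in the study's own matrix search, were not searched. Among the other members, Gchfr had 1 CCAAT box and Qdpr had 2, while Pts, Spr and Pcbd1 had none of the 4 motifs.

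The levels below are log2 normalized intensities, each a hybridization brightness that can be compared between samples for 1 probe but not between probes. A spot was taken as well above background by the scanner software's own flag, which held for 54.6 to 72.4% of probes per sample, and for the members in all 24 samples except 1 sample at the second Gch1 probe. At its brighter probe Nfil3 stood between 8.52 and 11.16 in the 12 WT samples and between 2.89 and 7.66 in the 12 KO samples. At each Nfil3 probe, 5 of the 12 KO samples carried the flag. These were KO control replicate 4, KO day 2 replicates 1 and 4, and KO day 5 replicates 1 and 3. At the brighter probe the flagged day 2 values were 5.35 and 6.28, and the flagged day 5 values 5.86 and 5.71. The unflagged KO samples lay between 2.89 and 4.39 there. The source of the flagged signal was not tested. The highest KO value, 7.66, belonged to KO control replicate 4, without which the KO maximum was 6.28. The labels of that sample disagree about its day: its title and source name give the control and another label gives day 5. Differences of the 6 genes that were called against KO controls are therefore also given without it. The defining markers of sensory neurons on the list (9 genes, among them Tubb3, Snap25 and Scn10a) were well above background in every sample. All 5 markers of injured neurons (Atf3, Sprr1a, Gal, Npy and Sox11) rose at both days, where 9.4% of all genes were called higher at day 2 and 10.1% at day 5.

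Across both genotypes, 4 of the 6 genes changed with the lesion by an F test over days, against a background of 26.3% of all genes tested. These were Gch1 (adjusted p = 4.66e-07), Pts (adjusted p = 0.0018), Pcbd1 (adjusted p = 0.00437) and Qdpr (adjusted p = 0.00708). Spr (adjusted p = 0.959) and Gchfr (adjusted p = 0.885) did not pass. The 26.3%, like the other shares of all genes here, also covers genes that were not well above background. The brightest probes of the 6 members were so in all 24 samples, and a share over such genes alone is not given. Averaged over the genotypes, 22.3% of all genes were called at day 2. Gch1 was the 1 member that was higher there, where 9.4% of all genes were, and Pts, Pcbd1 and Qdpr (3 members) were lower, where 12.9% of all genes were. At day 5, where 23.1% of all genes were called, Gch1 was again higher (10.1% of all genes) and Pcbd1 and Qdpr were lower (13% of all genes). The days were set against the same controls. The median change of the 6 genes was -0.12 at day 2 and -0.05 at day 5, beside -0.02 and -0.03 over all genes.

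Gch1 had the largest change of the 6 genes. In WT controls its level was 5.77, 5.51, 5.44 and 5.74, and in WT day 2 ganglia 6.54, 6.53, 6.72 and 7.30. WT day 5 ganglia had 6.84, 6.52, 7.13 and 6.80. Every lesioned WT sample was thus higher than every WT control, and the day 2 and day 5 values overlapped. In KO controls the level was 5.88, 5.32, 5.96 and 5.48, in KO day 2 ganglia 7.33, 6.68, 7.09 and 7.17, and in KO day 5 ganglia 6.61, 6.51, 6.97 and 6.86. The KO groups separated in the same way, and all 16 lesioned samples stood above all 8 controls, which was the case for 2.96% of all genes.

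The rise in WT was 2.23-fold at day 2 (1.16 ± 0.19 on the log2 scale, SE, adjusted p = 3.73e-04), in a comparison where 11.2% of all genes were called. At day 5 it was 2.31-fold in WT (1.21 ± 0.19, adjusted p = 1.67e-04), with 13.7% of all genes called. In KO ganglia it was 2.65-fold at day 2 (1.41 ± 0.19, adjusted p = 4.20e-05; 11.9% of genes called) and 2.11-fold at day 5 (1.08 ± 0.19, adjusted p = 5.82e-04; 12.7% of genes called). A rise at least as large was seen in 1.92% of genes in WT at day 2, 2.07% in WT at day 5, 1.1% in KO at day 2 and 2.82% in KO at day 5. The order of the group means was KO day 2 (7.07 ± 0.28, SD, n = 4), WT day 5 (6.82 ± 0.25), WT day 2 (6.77 ± 0.36), KO day 5 (6.74 ± 0.22), KO control (5.66 ± 0.31) and WT control (5.62 ± 0.17). Of these neighbours, only KO day 5 and KO control were apart by more than their spread.

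**Figure D1:**
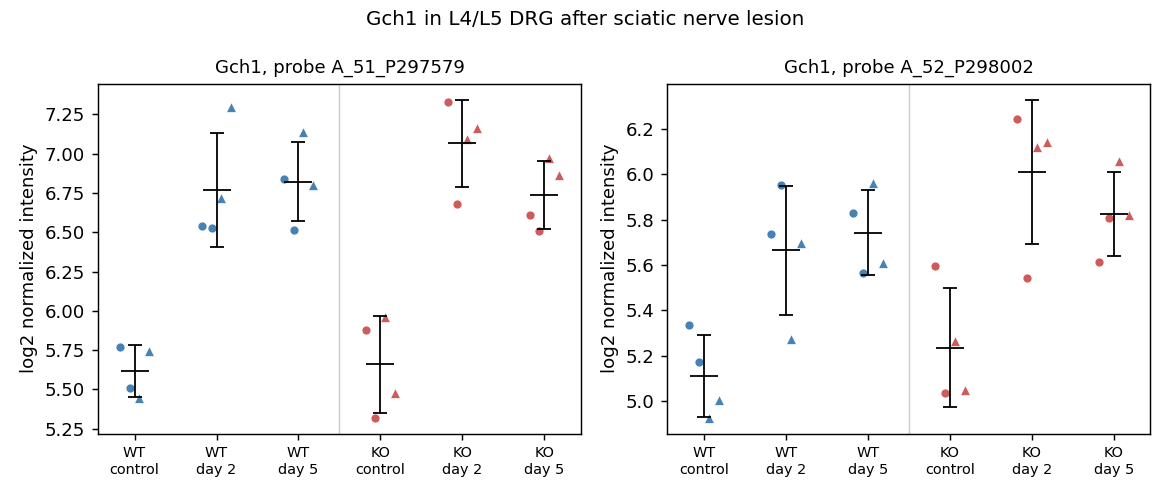
Log2 normalized intensity of the Gch1 probes A_51_P297579 (left) and A_52_P298002 (right) in each sample of the 6 groups (circles, Cy3 channel; triangles, Cy5 channel; blue, WT; red, KO), with mean and SD of 4 samples. At the left probe the 16 lesioned samples (6.51 to 7.33) lie above the 8 controls (5.32 to 5.96), while at the right probe the groups touch.

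The second Gch1 probe, which was dimmer, moved the same way by a smaller amount. It ranged from 4.93 to 5.59 in the 8 controls, from 5.27 to 6.24 at day 2 and from 5.57 to 6.06 at day 5, so lesioned and control samples overlapped slightly. Its rise was 0.55 (adjusted p = 0.0432) in WT at day 2, 0.63 (adjusted p = 0.0166) in WT at day 5, 0.78 (adjusted p = 0.00497) in KO at day 2 and 0.59 (adjusted p = 0.0283) in KO at day 5, on the log2 scale. Of these 4 calls, only that of KO at day 2 held in all 24 fits that left out 1 sample. WT day 2 was lost in 11 of them (adjusted p up to 0.151), KO day 5 in 6 (adjusted p up to 0.0979) and WT day 5 in 2 (adjusted p up to 0.0603). Without KO control replicate 4 the KO rise at this probe was 0.71 at day 2 (adjusted p = 0.0198) and 0.52 at day 5, which was not called (adjusted p = 0.0859). The KO day 5 call was also lost with no background correction (adjusted p = 0.0741), and the WT day 2 call with the normexp correction (adjusted p = 0.059). The size of the Gch1 fold depended on the background correction. At the brighter probe the 4 rises were 1.47- to 1.72-fold with no correction and 1.41- to 1.61-fold with the normexp correction, and all remained called.

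Samples were spread over 3 slides and 2 dyes, and the Gch1 rise was present within each. Slides 1 and 2 each held 3 WT and 5 KO samples, and slide 3 held 6 WT and 2 KO samples. Not every lesioned group was on every slide. Of 9 differences between lesioned and control samples of the same genotype on the same slide, 9 were above 0, from 0.87 to 1.85. The highest came from 1 lesioned and 1 control sample. Among Cy3 channels the rise was 1.15 at day 2 and 1.00 at day 5, and among Cy5 channels 1.41 and 1.29. The 4 controls that shared an array with a lesioned sample had Gch1 levels of 5.48 to 5.88, within the 5.32 to 5.96 of the 4 controls that shared it with another control. Without KO control replicate 4 the KO rise was 1.35 (adjusted p = 2.73e-04) at day 2 and 1.02 (adjusted p = 0.00302) at day 5. Averaged over genotypes it was then 1.25 (adjusted p = 2.74e-06) and 1.11 (adjusted p = 8.83e-06).

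Markers of other cell types moved with the lesion beside Gch1. All 7 macrophage markers passed the lesion F test, which 26.3% of all genes passed. As the mean log2 level relative to WT controls, they ranged from -0.36 to 0.38 in controls, from -0.05 to 0.98 at day 2 and from 1.25 to 1.75 at day 5. No difference of Gch1 between the days was called (day 5 minus day 2, -0.14, 95% interval -0.42 to 0.14, adjusted p = 0.702). In controls the 5 injured-neuron markers ranged from -1.26 to 1.81. They ranged from 3.74 to 4.89 at day 2 and from 5.18 to 5.62 at day 5. The highest control value, 1.81, belonged to a WT sample. Among KO controls, replicate 4 was highest at 1.61, and the rest lay between -1.24 and -0.04. Which label of KO control replicate 4 is right was not tested. Of the 4 satellite glia markers, 3 passed the lesion F test. Glul, the glutamine synthetase of these cells, was higher by 0.78 at day 2 and 0.65 at day 5, and Gfap, an intermediate filament, by 1.43 and 1.22, though Gfap was well above background in only 2 of the 8 controls. Fabp7, a fatty acid binding protein, was at -0.93 and -0.36. Kcnj10, their potassium channel, did not pass the F test (-0.28 and -0.11). The mean level of the 4 ranged from -0.32 to 0.28 in controls, from 0.12 to 0.39 at day 2 and from 0.22 to 0.49 at day 5. Of 5 Schwann cell markers only Pmp22 passed (0.47 at day 2 and 0.03 at day 5), and of 3 endothelial markers only Pecam1 (0.29 and 0.17). Both counts are near the 26.3% of all genes. None of the 4 T cell markers and none of the 4 fibroblast markers passed. The part of these cells in the Gch1 rise was not tested, and in whole ganglia more cells of a type cannot be told apart from more RNA per cell.

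No change was called for Gchfr, which encodes the protein that restrains GTP cyclohydrolase. Its values were 7.28, 7.47, 7.13 and 7.17 in WT controls, 7.08, 7.18, 7.49 and 7.04 in WT day 2 and 7.72, 6.93, 7.00 and 6.92 in WT day 5 ganglia. In the KO groups they were 7.13, 7.30, 7.17 and 7.17 in controls, 7.93, 7.14, 6.92 and 6.84 at day 2 and 7.06, 7.43, 7.00 and 7.00 at day 5. All groups overlapped, and 1 sample stood high in WT day 5, KO day 2 and KO day 5. Averaged over genotypes, the change was -0.02 at day 2 (95% interval -0.32 to 0.28) and -0.09 at day 5 (95% interval -0.39 to 0.21). The intervals exclude a rise of the size seen for Gch1.

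The log2 difference of Gch1 minus Gchfr, an enzyme and its regulatory partner, was also taken within each sample. It ran from -1.98 to -1.21 in the 8 controls, from -0.78 to 0.33 in the 8 day 2 samples and from -0.92 to 0.13 in the 8 day 5 samples, with no overlap of lesion and control. The share of other gene pairs separated like this is not given here. Gch1 alone already separated lesion from control, and Gchfr had no called change. The difference therefore largely repeats the Gch1 rise, and its tests are no second result. It rose by 1.30 at day 2 and by 1.24 at day 5, each with an exact two-sided permutation p of 1.554e-04, the smallest these samples can give (4.662e-04 after Benjamini-Hochberg adjustment over 6 comparisons). Within a genotype the rises were 1.22 and 1.33 in WT and 1.39 and 1.15 in KO, each at the smallest exact permutation p that 4 against 4 samples allow, 0.0286. With the normexp background correction the rises over both genotypes were 0.62 at day 2 and 0.58 at day 5. Leaving out KO control replicate 4 gave 1.29 and 1.22, and within KO 1.34 (exact permutation p = 0.0286) and 1.09 (exact permutation p = 0.0571).

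Pts, the enzyme of the second step, was higher at day 5 than at day 2. Its brighter probe gave 9.85, 9.63, 9.55 and 9.49 in WT controls, 9.52, 9.52, 9.38 and 9.41 at day 2 and 9.80, 9.88, 9.75 and 9.81 at day 5. KO ganglia gave 9.76, 9.60, 9.59 and 9.60 in controls, 9.41, 9.37, 9.54 and 9.52 at day 2 and 9.89, 9.63, 9.74 and 9.70 at day 5. In both genotypes all day 5 samples were higher than all day 2 samples, though the share of all genes separated in this way is not given here. Averaged over genotypes, day 5 minus day 2 was 0.31 ± 0.06 (SE, 1.24-fold, adjusted p = 0.00451), where 3.34% of all genes were called, and Pts was the only one of the 6 genes called there.

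The departures of Pts from control were smaller. It was lower by 0.17 at day 2 (log2 difference -0.17, adjusted p = 0.0488), and this call was lost in 20 of the 24 fits that left out 1 sample, all but those without WT control replicate 3 or 4, KO day 2 replicate 3 or KO day 5 replicate 1. The difference was -0.18 (adjusted p = 0.0617) without KO control replicate 4. At day 5 the difference of 0.14 was not called (adjusted p = 0.11). The second Pts probe, 71 bases away, had the same sign in both comparisons (-0.16 at day 2 and 0.04 at day 5) but did not pass the lesion F test (adjusted p = 0.207), nor was its day 5 minus day 2 difference of 0.20 called (adjusted p = 0.284).

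Spr, the reductase of the last step, gave no called change. Its levels were 11.01, 11.50, 11.29 and 11.28 in WT controls, 11.24, 11.23, 11.02 and 11.35 at day 2 and 11.26, 10.48, 11.41 and 11.03 at day 5. In KO ganglia they were 11.15, 11.28, 10.28 and 11.47 in controls, 11.32, 11.45, 10.94 and 10.17 at day 2 and 11.40, 11.27, 11.31 and 11.04 at day 5. WT day 5 replicate 2, KO control replicate 3 and KO day 2 replicate 4 stood below all other samples. The spread made the intervals wide, -0.45 to 0.32 at day 2 and -0.39 to 0.38 at day 5, averaged over genotypes.

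Pcbd1, the dehydratase of the recycling arm, was lower after the lesion. WT controls had 12.56, 12.61, 12.61 and 12.60, WT day 2 ganglia 12.31, 11.95, 12.13 and 12.18, and WT day 5 ganglia 12.25, 12.20, 12.43 and 12.22. KO controls had 12.48, 12.53, 12.49 and 12.62, KO day 2 ganglia 12.45, 12.30, 12.39 and 11.83, and KO day 5 ganglia 12.51, 12.28, 12.23 and 12.23. All lesioned WT samples were below all WT controls, and of the lesioned KO samples only KO day 5 replicate 1 reached into the control range. How many of all genes separated like this is not given here. The fall in WT at day 2 was called (-0.45 ± 0.11, SE, 0.732-fold, adjusted p = 0.0141), but without WT day 2 replicate 2 the adjusted p was 0.0623. In WT at day 5 the difference was -0.32 (adjusted p = 0.0777), in KO at day 2 -0.29 (adjusted p = 0.124) and in KO at day 5 -0.22 (adjusted p = 0.284). Averaged over genotypes it was lower at day 2 (-0.37 ± 0.08, adjusted p = 0.00227) and at day 5 (-0.27 ± 0.08, adjusted p = 0.02), and with the scanner software's processed signals the day 5 call was lost (adjusted p = 0.104). Without KO control replicate 4 these averages were -0.35 (adjusted p = 0.00582) and -0.25 (adjusted p = 0.0415). All 9 differences within slides were below 0.

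Qdpr, the reductase that closes the recycling arm, was also lower. WT controls had 11.92, 11.78, 11.93 and 11.88, WT day 2 ganglia 11.68, 11.39, 11.65 and 11.78, and WT day 5 ganglia 11.62, 11.50, 11.75 and 11.62. KO controls had 12.11, 11.86, 12.04 and 11.91, KO day 2 ganglia 11.69, 11.57, 12.11 and 11.63, and KO day 5 ganglia 11.67, 11.41, 11.65 and 11.41. KO day 2 replicate 3 was as high as the controls, and every other lesioned sample was below every control of its genotype, by as little as 0.00124 in WT at day 2. No share of all genes is given here for such a separation. The fall in KO at day 5 was called (-0.45 ± 0.12, SE, 0.734-fold, adjusted p = 0.0134), though the adjusted p was 0.0503 without KO day 5 replicate 2 and 0.051 without KO day 5 replicate 4. It was -0.47 (adjusted p = 0.0223) without KO control replicate 4. The other within-genotype differences, -0.25 in WT at day 2, -0.26 in WT at day 5 and -0.23 in KO at day 2, were not called (adjusted p = 0.197, 0.175 and 0.225). Averaged over genotypes it was lower at day 2 (-0.24 ± 0.08, adjusted p = 0.0372) and at day 5 (-0.35 ± 0.08, adjusted p = 0.00285). The day 2 call was lost in 10 of the 24 fits that left out 1 sample, with adjusted p up to 0.0878. Without KO control replicate 4 the averages were -0.25 at day 2 (adjusted p = 0.0435) and -0.36 at day 5 (adjusted p = 0.00421).

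**Figure D2:**
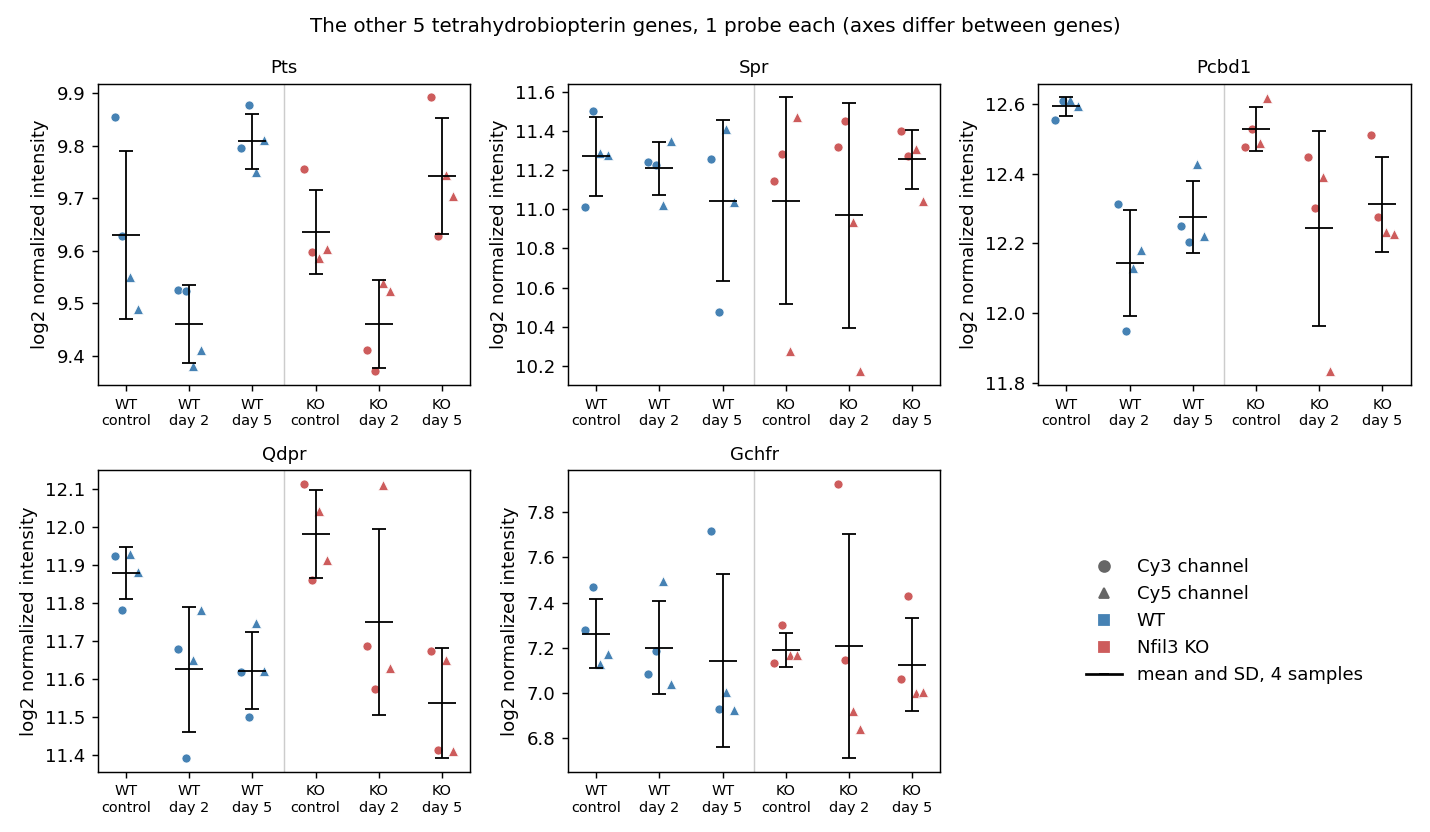
Log2 normalized intensity of the brightest probe of Pts, Spr, Pcbd1, Qdpr and Gchfr in each sample of the 6 groups (circles, Cy3 channel; triangles, Cy5 channel; blue, WT; red, KO), with mean and SD of 4 samples and an axis of its own for each gene. Day 5 lies above day 2 for Pts, lesioned ganglia lie mostly below controls for Pcbd1 and Qdpr, and single samples stand apart for Spr and Gchfr.

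**Figure D3:**
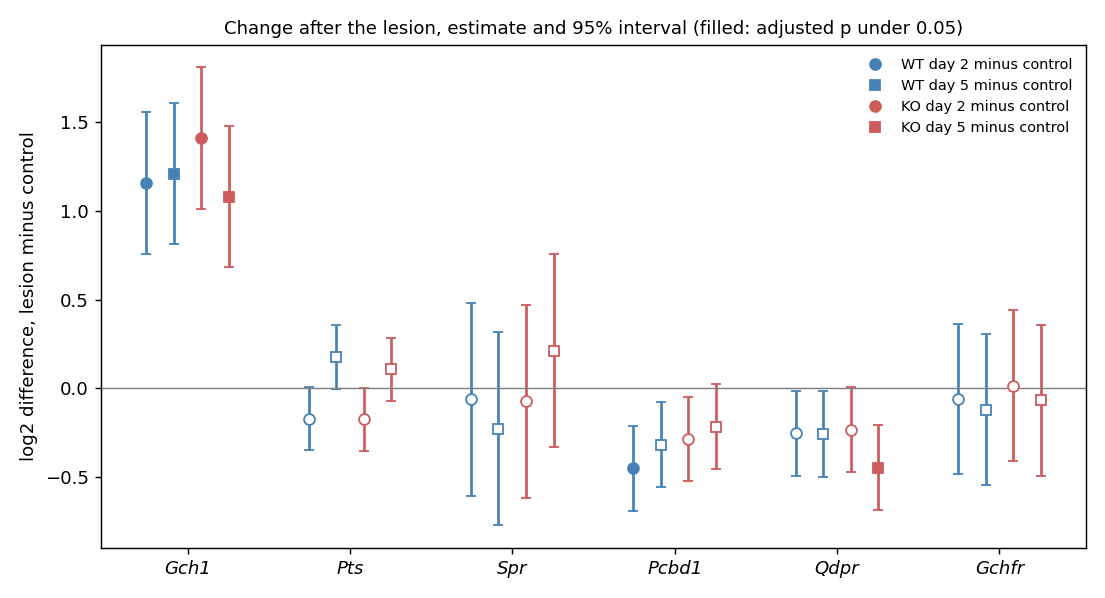
Log2 difference from control of the 6 genes in WT (blue) and KO (red) at day 2 (circles) and day 5 (squares), with 95% intervals; filled symbols have an adjusted p under 0.05. The 4 Gch1 rises (1.08 to 1.41) lie apart from the other 20 differences, which lie between -0.45 and 0.21.

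Sensory neuron markers fell in the same ganglia, with 6 of 9 lower at day 2 and 6 of 9 lower and 1 higher at day 5. Over all genes 12.9% were called lower at day 2, and 13% lower and 10.1% higher at day 5. The median change of the 9 was -0.55 and -0.72, beside -0.02 and -0.03 over all genes. The falls of Pcbd1 and Qdpr stood beside these values, and the part of neuronal RNA in them was not tested. Red blood cell and skeletal muscle markers (3 each) passed no lesion F test, but the muscle score ranged from -1.18 to 4.84 over all samples.

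The study asked whether loss of NFIL3 alters the response of the ganglion to injury. It reported a small set of genes whose regulation by the lesion differed in KO mice, from a time course test and a limma interaction test. The time course test was not run here. For the 6 genes no test called a difference between the genotypes. None of the 6 was called for KO minus WT over the 3 time points or for the interaction of time and genotype, where 0.0073% and 0% of all genes were called. With so few calls over all genes, 0 of 6 is no result particular to these genes. At an unadjusted p under 0.05 the count was also 0 in both tests, the smallest unadjusted p being 0.463 and 0.374. The largest difference of Gch1 was at day 2, where KO minus WT was 0.30 (95% interval -0.10 to 0.69) at the brighter probe and 0.35 (95% interval -0.01 to 0.70) at the second probe. In controls it was 0.04 (95% interval -0.35 to 0.44), or 0.10 without KO control replicate 4, and at day 5 -0.08 (95% interval -0.48 to 0.31) at the brighter probe. On the slides the day 2 difference was -0.00136 on slide 2, from 2 samples of each genotype, and 0.63 on slide 3, from 1 KO and 2 WT samples. For the other 5 genes the differences lay between -0.24 and 0.21, and Spr had the widest interval, -0.78 to 0.30 at day 2.

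The genes whose profile over the 24 samples was nearest that of Gch1 were Pde7a, Rnh1, Mapk6, Pkib and Nod2. They were found among 11702 genes well above background in all samples, by the root mean square of the difference between centred log2 levels. That difference was 0.23 for Pde7a, the nearest, and 0.24 for Nod2, the fifth, against a median of 0.67 over all candidates and 0.35 between the 2 Gch1 probes. Pde7a, a cyclic AMP phosphodiesterase, rose by 1.35 at day 2 and by 1.06 at day 5. Genes picked by nearness over these samples must change much as Gch1 does, so this rise is no separate result. Nearest to Pcbd1 were Hmox2, Mrps36 and Snrnp25 (0.09 to 0.10), nearest to Qdpr Parp11, Nipal2 and Gphn (0.08 to 0.10) and nearest to Pts Slc25a3, Tmem68 and Dnajb2 (0.09 to 0.10). Gphn encodes gephyrin, which makes the molybdenum cofactor and anchors inhibitory receptors.

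Of the enzymes that use tetrahydrobiopterin, 4 of the 7 reported passed the lesion F test, which 26.3% of all genes passed. Th, the tyrosine hydroxylase of catecholamine synthesis, ranged from 9.95 to 10.92 in controls, from 8.76 to 10.52 at day 2 and from 8.71 to 9.62 at day 5. All day 5 samples of Th were below all controls, a separation whose share over all genes is not given here. The change of Th at day 5 was -1.38 (SE 0.22, adjusted p = 8.51e-05). Nos1, the neuronal nitric oxide synthase, was lower by 0.62 at day 2 and 0.63 at day 5 (log2 differences -0.62 and -0.63), and Nos3, the endothelial form, was at -0.26 and -0.38. Tph1, a tryptophan hydroxylase, was the only one called higher, at 0.71 at day 2 and 0.45 at day 5 by its brighter probe. This probe was well above background in only 4 of the 8 controls. The Tph1 rise at day 5 was 0.10 with no background correction and 0.09 with normexp, and was not called in either. The mean of the 2 Tph1 probes gave 0.02 and -0.02, and the day 5 call was lost in 11 of the 24 fits that left out 1 sample. Tph2, Nos2 and Agmo did not pass (adjusted p = 0.643, 0.59 and 0.778).

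**Figure D4:**
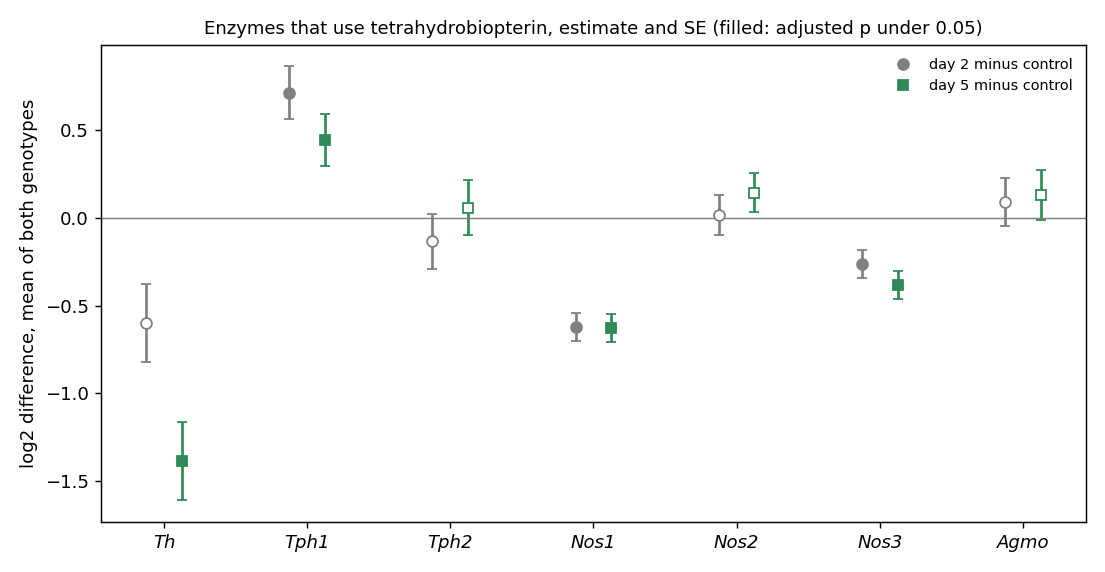
Log2 difference from control of 7 enzymes that use tetrahydrobiopterin, averaged over WT and KO, at day 2 (grey circles) and day 5 (green squares), with SE; filled symbols have an adjusted p under 0.05. Th, Nos1 and Nos3 lie below 0.

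Of the other pathway genes, 1 of 7 recycling and side-branch reductases, 4 of 7 genes of GTP supply, 4 of 8 of monoamine handling, 5 of 9 of arginine and nitric oxide supply and 3 of 9 signals known to act on Gch1 passed the lesion F test. Together with the enzymes above this was 21 of 47 genes, with 11 higher and 6 lower at day 2 and 12 higher and 8 lower at day 5, and none was called for genotype. Over all genes 26.3% passed the F test, 9.4% were called higher and 12.9% lower at day 2, and 10.1% higher and 13% lower at day 5. Jak2 and Il1b, of the cytokine signals, were higher at both days (0.37 and 0.44 for Jak2, 1.13 and 1.00 for Il1b). Il1b depended on the background correction and was at 0.26 and 0.22 with normexp, where both were still called. Ifng, the other signal that passed, was lower at day 2 (-0.88, adjusted p = 0.0318) but well above background in only 2 of the 24 samples. Arg2, which consumes the arginine that nitric oxide synthases use, was higher by 1.04 and 1.49.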

How the data were processed

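The 24 samples were channels of 12 two-colour Agilent arrays on 3 slides, and the deposited intensity columns were written per spot by Agilent Feature Extraction 10.7.3.1. The deposited flags, which take other values than intensity, mark outlier spots and spots well above background. Following the study's methods, background was corrected by Edwards' method on mean foreground and median background, and values were quantile normalized over 24 channels and put on the log2 scale in limma 3.58.1 (R 4.3.3). Control spots were left out, 417 probe values flagged as outliers were missing, and 0 spots were saturated. Groups were fitted with 1 mean each, with F tests for lesion, genotype and interaction, Benjamini-Hochberg adjustment over 41174 probes and a threshold of 0.05. The brightest probe stood for a gene. Intervals are 95%. The Gch1 minus Gchfr differences were compared by exact two-sided permutation. Named genes were the 6 members, Nfil3, listed pathway and marker genes (some pathway genes are not reported here) and the closest profiles (at most 5 per member). The members and lists were chosen with earlier results of these data known. Alternatives were background correction, normalization, probe filter, dye, slide, array and replicate terms, and leaving out each sample. Sample number limits precision. Labels give 4 biological replicates per group.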

Additional observations from a re-analysis of the deposited data

Results flagged for a closer look

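In 48 groups of 4 samples (8 probes in 6 groups), 4 held a sample far from the other 3, and chance gives about 1 in 20 such groups. Gchfr was high in WT day 5 replicate 1 (7.72, nearest other value 7.00) and in KO day 5 replicate 2 (7.43, nearest 7.06). Pts was high in KO control replicate 1 at its brighter probe (9.76, nearest 9.60) and low in KO day 5 replicate 2 at its second probe (8.60, nearest 8.88). The cause was not tested.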

How the results depend on the processing

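The 4 genes called for the lesion by F test were called in all 14 alternatives and in all 24 fits without 1 sample, and the counts for genotype and interaction were 0 in all of them. The 4 Gch1 rises at the brighter probe were called in all of them. The count of called genes in WT at day 5 went from 1 to 2 with no background correction, with normexp, with dim probes removed (under 4 samples above background), with array as a random block and with an intensity trend (Pcbd1 joining Gch1), and to 2 with slide as a block (Qdpr joining Gch1). Leaving out each sample in turn gave 1 to 2 called genes in WT at day 2 (1 without WT day 2 replicate 2), WT at day 5 (2 without KO day 2 replicate 4), KO at day 2 (2 without KO day 2 replicate 3) and KO at day 5 (1 without KO day 5 replicate 2 or 4). Pts lost its day 2 call with median foreground, loess and Aquantile, outlier spots kept, probes averaged, slide, array or array partner as a block, and Qdpr with processed signals, median foreground or array as a random block. No scaling moved the median of all genes by over 0.1.

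Signs turned only in differences that were not called, apart from 2 pathway genes with discordant probes. Within slides, where no test was made, 10 of 54 differences from control had the opposite sign to that over all slides, and 0 of these were called over all slides. They were between -0.461 (Gchfr, KO day 2, slide 3) and 0.322 (Spr, WT day 5, slide 1). With processed signals Spr was at 0.00488 in WT at day 2 and 0.00112 over genotypes at day 5, and Gchfr at -0.0039 in KO at day 2. With loess and Aquantile Spr was at 0.00965 at day 5. With slide as a block Gchfr was at -0.0312 in KO at day 2 and Gch1 KO minus WT in controls at -0.0392. With array as a random block Gchfr was at -0.00161 in KO at day 2 and Spr at -0.0195 for day 5 minus day 2. With probes averaged, Gmps was at 0.000865 at day 2 and Tph1 at -0.0167 at day 5. Without 1 sample each, Gchfr ranged from -0.16 to 0.00726 (WT day 2), -0.224 to 0.138 (KO day 2), -0.143 to 0.0381 (day 2, both) and -0.166 to 0.0494 (day 5 minus day 2). Spr ranged from -0.147 to 0.0164 (WT day 2), -0.328 to 0.193 (KO day 2), -0.0435 to 0.355 (KO day 5), -0.195 to 0.0659 (day 2, both), -0.135 to 0.0879 (day 5, both) and -0.0728 to 0.155 (day 5 minus day 2). Gch1 KO minus WT ranged from -0.0579 to 0.157 in controls and from -0.187 to 0.0199 at day 5.

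Replicate numbers do not pair the samples by the labels, and numbers 1 and 2 are Cy3 and 3 and 4 are Cy5. Samples with the same number had deviations correlated from -0.116 to 0.256 (median 0.070), and 17 of 24 were closest to their own number. Samples of the same dye but another number had -0.156 to 0.228 (median 0.038), and the part of the dye in the 17 was not tested. The replicate block gave 4 genes for the lesion and 0 for genotype and interaction, with 2, 1, 1 and 2 called in WT day 2, WT day 5, KO day 2 and KO day 5, and it changed no member's call.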
